A study of Homo sapiens with 36 samples.

Results

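The 10 genes described here encode polycomb repressive complex 2 (PRC2): EZH1, EZH2, SUZ12, EED, JARID2, MTF2, PHF19, AEBP2, RBBP4 and RBBP7. They were given as a list of subunits, made with earlier results of these data known, and were found by their NCBI GeneIDs. No measured value entered the rule that chose them. All 10 had values in each of the 3 gene tables, which held 16431, 17035 and 16459 genes. The tables came from RNA-seq of clones selected for cisplatin resistance from lines of human embryonal carcinoma, the stem-like form of testicular germ cell tumor. The first table covered NT2/D1-A4 cells and the second 2102EP-C1 cells, each in the groups control, cisplatin, GSK-J4, and GSK-J4 and cisplatin. The third table covered 2102EP-C1 cells in the groups pLKO.1, pLKO.1 cisplatin, sh6A+6B and sh6A+6B cisplatin. There were 3 libraries per group, 12 per table and 36 in all, and the series' design text calls them biological triplicates.

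GSK-J4 is an inhibitor of KDM6A and KDM6B, the enzymes that remove methyl groups from lysine 27 of histone H3, and was given at 1 µM for 3 days ahead of cisplatin. Cisplatin, a DNA-crosslinking drug, was given at 0.5 µM for 6 h, and cells were harvested 24 h later. The pLKO.1 cells carried the empty lentiviral vector and the sh6A+6B cells carried 1 short hairpin RNA (shRNA) against each of KDM6A and KDM6B under drug selection, so all 4 groups of that experiment carried a lentiviral vector. The knockdown used a puromycin and a neomycin vector, and whether pLKO.1 cells had both is not given in the sources used here, so a second vector and drug cannot be told apart from the knockdown. Each line is a single resistant clone. The control groups of the first 2 experiments are labeled VC, a vehicle control that the paper also calls untreated, with the vehicle not named. They are called control or untreated here. In the third experiment the groups without cisplatin bore a vector and received PBS. Each table was normalized on its own, so tests were made within a table and values from different tables are only set side by side.

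PRC2 is the enzyme that places the methyl marks KDM6A and KDM6B remove. Its catalytic subunit is EZH2 or the less active EZH1, which works only when held by SUZ12, the scaffold, and EED, which reads the finished mark and stimulates the enzyme. RBBP4 and RBBP7 are closely related histone-binding proteins that PRC2 shares with other chromatin complexes. The core then takes one of 2 sets of accessory subunits. MTF2 or PHF19, which bind unmethylated CpG-rich DNA, define the form called PRC2.1, and JARID2 and AEBP2, which bind DNA and ubiquitylated histone H2A, define PRC2.2. In pluripotent cells, including embryonal carcinoma, PRC2 keeps developmental regulators silent.

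The genes lie apart in the genome (RefSeq, GRCh38.p14). On chromosome 17 are EZH1 (GeneID 2145, chr17:42700275-42745040, minus strand) and SUZ12 (23512, chr17:31937007-32001038, plus). On chromosome 1 are MTF2 (22823, chr1:93079283-93139076, plus) and RBBP4 (5928, chr1:32651208-32686211, plus). EZH2 (2146) is at chr7:148807383-148884291 on the minus strand, EED (8726) at chr11:86244753-86287615 on the plus strand and JARID2 (3720) at chr6:15246069-15522042 on the plus strand. PHF19 (26147) is at chr9:120855651-120904128 on the minus strand, AEBP2 (121536) at chr12:19404072-19522227 on the plus strand and RBBP7 (5931) at chrX:16844341-16870362 on the minus strand. Values are summed over each gene, so they do not tell isoforms apart.

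The promoter sequences of 4 members are shown because their genes carry the results below: EZH2 as the catalytic subunit, SUZ12 as a member that fell with GSK-J4 in both lines, and JARID2 and AEBP2 as the members with the largest changes in the response to cisplatin after knockdown. They are RefSeq sequences on GRCh38.p14, the build the authors aligned to, from 200 bases before to 10 bases after the annotated start, written 5′ to 3′ on the strand of the gene. Capitals mark E2F motifs (TTTCCCGC, TTTCGCGC, TTTGCCGC or TTTGGCGC) and the CCAAT motif, each on either strand. In these sequences no motif overlaps another.
EZH2, chr7:148884282-148884491, minus strand: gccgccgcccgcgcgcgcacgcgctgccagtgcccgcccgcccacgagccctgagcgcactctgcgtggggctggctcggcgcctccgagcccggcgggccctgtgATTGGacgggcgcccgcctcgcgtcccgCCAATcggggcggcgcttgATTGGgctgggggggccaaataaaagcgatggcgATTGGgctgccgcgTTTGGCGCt
SUZ12, chr17:31936807-31937016, plus strand: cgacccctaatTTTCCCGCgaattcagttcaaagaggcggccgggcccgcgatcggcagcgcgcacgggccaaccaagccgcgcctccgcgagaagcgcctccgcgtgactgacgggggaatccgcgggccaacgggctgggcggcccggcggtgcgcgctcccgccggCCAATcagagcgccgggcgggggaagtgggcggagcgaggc
JARID2, chr6:15245869-15246078, plus strand: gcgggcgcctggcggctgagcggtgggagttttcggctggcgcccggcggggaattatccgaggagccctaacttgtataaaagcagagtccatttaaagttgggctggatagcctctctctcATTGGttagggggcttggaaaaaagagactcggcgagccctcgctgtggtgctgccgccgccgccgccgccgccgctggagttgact
AEBP2, chr12:19440399-19440608, plus strand: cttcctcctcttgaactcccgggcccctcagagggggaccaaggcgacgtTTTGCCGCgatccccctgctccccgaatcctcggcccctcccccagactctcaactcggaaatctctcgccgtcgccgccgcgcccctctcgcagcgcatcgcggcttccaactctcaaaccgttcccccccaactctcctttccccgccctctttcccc
Counted from the start, the EZH2 sequence held CCAAT at -94, -66, -47 and -13 and an E2F motif at 2. The SUZ12 sequence held an E2F motif at -189 and CCAAT at -31, that of JARID2 held CCAAT at -77, and that of AEBP2 held an E2F motif at -150. The annotated AEBP2 start lies inside the gene's full span, which begins at 19404072 on chromosome 12. In 300-base windows around the start, 5 of the 10 members held an E2F motif (EZH1, EZH2, SUZ12, MTF2 and AEBP2), against 3.33% of all 27305 promoters and 5.69% of the 12950 promoters with at least 16 CpG. CCAAT was found in 7 of 10, against 35.7% and 33.0%. The exact NRF1 and YY1 consensus motifs were found in 0 of 10, against 1.36% and 0.916% of all promoters. These are matches of letters in a window and say nothing about binding.

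The libraries held 26.8 to 49.5 M counted reads in the NT2/D1-A4 clone (median 35.25), 30.3 to 53.6 M in 2102EP-C1 cells with GSK-J4 (median 37.25) and 79.4 to 100.9 M in the knockdown experiment (median 88.4). The cells matched their label in most markers: all 8 embryonal carcinoma markers (POU5F1, NANOG, SOX2, LIN28A, DPPA4, SALL4, TDGF1 and L1TD1) had values, and their summed level was 4720 to 6220 CPM (counts scaled to library size) in the NT2/D1-A4 clone and 6970 to 7920 CPM in the line 2102EP-C1. TDGF1 was low in the NT2/D1-A4 clone, at 3.34 to 4.35 log2 CPM. It stood at 9.78 to 9.95 and 9.65 to 9.89 in the GSK-J4 and knockdown experiments of 2102EP-C1. Every other marker was at 7.4 log2 CPM or more in all libraries. Of the fibroblast markers 2 of 5 had values (22.1 to 89.4 CPM summed), of the leukocyte markers 1 of 4 (0.419 to 5.68 CPM), and PTPRC, CD3E, LST1, COL3A1, DCN and LUM had none. At most 1 of 4 yolk sac or endoderm markers and 1 of 4 neural markers had values in any table, at no more than 0.754 and 0.709 CPM.

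The targeted demethylases were checked first. With sh6A+6B, KDM6A stood at 6.14, 6.09 and 6.20 log2 CPM in the 3 libraries, below the 7.16, 7.17 and 7.15 of pLKO.1. KDM6B stood at 3.51, 3.61 and 3.75 log2 CPM against 4.61, 4.66 and 4.63. Both fell by 1.01 on the log2 scale (SE 0.03 and 0.05, limma adjusted p = 2.1e-18 and 1.8e-14), so the labels of the knockdown libraries held and transcript of both genes remained. With GSK-J4, KDM6B rose by 0.88 ± 0.06 log2 (SE) in the NT2/D1-A4 clone and 0.81 ± 0.07 in 2102EP-C1 cells.

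Levels of the subunits differed far more between genes than between treatments. As CPM per kilobase of transcript (mean ± SD, n = 3), control NT2/D1-A4 cells held RBBP7 at 131.4 ± 2.5, JARID2 at 105.8 ± 2.4, RBBP4 at 59.4 ± 1.6, SUZ12 at 39.8 ± 0.8 and MTF2 at 37.1 ± 0.25. EZH2 at 34.9 ± 0.43 and AEBP2 at 34.3 ± 0.56 overlapped and are not ordered. EED followed at 26.97 ± 0.85, and the last were PHF19 at 3.44 ± 0.21 and EZH1 at 2.81 ± 0.09. Control 2102EP-C1 cells had RBBP7 at 186.3 ± 1.9, JARID2 at 68.5 ± 0.44, RBBP4 at 50.9 ± 0.23, MTF2 at 49.3 ± 0.69, AEBP2 at 41.0 ± 0.58, SUZ12 at 39.2 ± 0.39, EZH2 at 28.2 ± 0.79 and EED at 18.1 ± 0.57. PHF19 at 3.35 ± 0.16 and EZH1 at 2.86 ± 0.13 were again lowest. In pLKO.1 cells RBBP7 (193.3 ± 1.9) and RBBP4 (83.1 ± 0.10) stood above JARID2 (67.1 ± 0.63), AEBP2 (36.2 ± 0.97) and SUZ12 (35.5 ± 0.29) overlapped, and EZH1 (3.46 ± 0.09) stood above PHF19 (3.07 ± 0.08). All other neighbors in these orders were separated without overlap of their 3 libraries, and a table's order is the firm comparison, since the 3 tables were scaled apart.

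**Figure D1:**
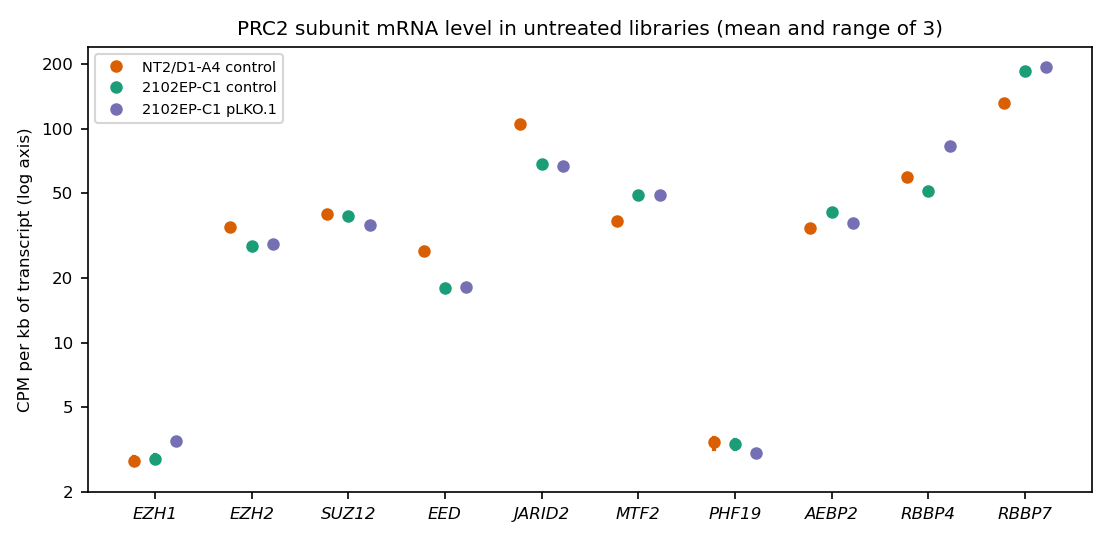
Level of each PRC2 subunit per kilobase of transcript (CPM per kilobase, log axis) in the untreated or vector-only group of each experiment. Each point is the mean of 3 libraries and each line their range. RBBP7 is highest in all 3 experiments, and EZH1 and PHF19 lie near 3, below the other 8 members.

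Of the alternative catalytic subunits EZH2 was the more abundant. The ratio of EZH2 to EZH1 per length was 12.4 ± 0.36 (SD, n = 3) in NT2/D1-A4 controls, 9.90 ± 0.48 in control 2102EP-C1 cells and 8.34 ± 0.29 in pLKO.1 cells. In the NT2/D1-A4 clone it was 15.5 ± 1.1 after cisplatin, with libraries from 14.4 to 16.5 that did not overlap the controls (12.03 to 12.72). In pLKO.1 cells the ratio was lower after cisplatin, also without overlap (7.438 to 7.749 against 8.091 to 8.659). In untransduced 2102EP-C1 cells the libraries overlapped (9.698 to 10.55 after cisplatin, 9.502 to 10.43 in controls). Within the PRC2.1 pair, MTF2 outnumbered PHF19 in every group by per-length level. RBBP4 stood at 0.452 ± 0.0087 of RBBP7 in control NT2/D1-A4 cells, 0.273 ± 0.0016 in control 2102EP-C1 cells and 0.430 ± 0.0047 in pLKO.1 cells.

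Changes were measured as log2 differences within a table by limma, with a two-sided test adjusted by Benjamini-Hochberg (BH) over all genes, and a gene was called at adjusted p under 0.05. Over the 10 members and 6 comparisons in 3 experiments, 72 of 180 results were called, 3 also passed a fold of 1.3, and 166 were smaller than 0.25 on the log2 scale in either direction. The share of all genes called ran from 0.0426% to 62.6% between comparisons. In the 3 comparisons with a member past the fold of 1.3, 12.1%, 16.0% and 3.77% of genes passed both rules. The share of all genes under 0.25 was not counted, so these totals do not single out the members. In bulk RNA, fewer cells that carry a transcript and less transcript per cell cannot be told apart.

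Without cisplatin, GSK-J4 lowered 3 members in the NT2/D1-A4 clone and 5 in 2102EP-C1 cells and raised none, while sh6A+6B lowered 3 and raised 3. In the NT2/D1-A4 clone SUZ12, JARID2 and MTF2 were called, 3 of 10 where 48.3% of all genes were called in either direction and 23.8% as lower. In 2102EP-C1 cells SUZ12, EED, JARID2, AEBP2 and RBBP4 were called, 5 of 10 where 35.2% of genes were called and 16.0% as lower. With sh6A+6B, EZH2, PHF19 and RBBP4 fell and EED, JARID2 and AEBP2 rose, 6 of 10 where 52.8% of genes were called, 27.2% as lower and 25.6% as higher. The median log2 change over all 10 members was -0.06, -0.07 and -0.03 in these 3 comparisons, against 0.0084, -0.0017 and -0.0047 over all genes tested. Only JARID2 in the knockdown passed the fold of 1.3 as well, where 12.1% of genes did. SUZ12 and JARID2 were the members called lower with GSK-J4 in both lines.

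**Figure D2:**
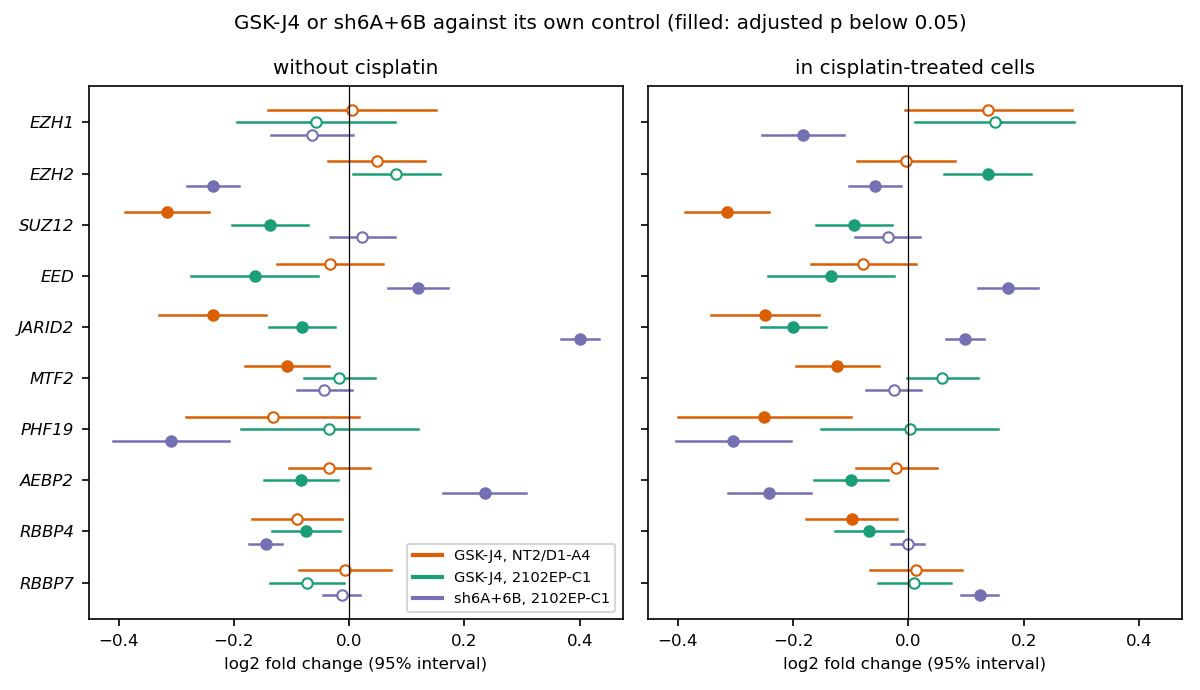
Log2 change of each PRC2 subunit with GSK-J4 or with sh6A+6B against the matched group, without cisplatin and within cisplatin-treated cells, with 95% confidence intervals from limma (3 libraries per group). SUZ12 lies left of 0 in both GSK-J4 experiments (-0.32 and -0.14 without cisplatin) and near 0 with knockdown, while JARID2 lies left of 0 with GSK-J4 and right of 0 with knockdown (0.40).

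SUZ12, the scaffold that the rest of the complex is built on, fell with GSK-J4 in both lines, with and without cisplatin. Its 3 control libraries in the NT2/D1-A4 clone read 7.49, 7.51 and 7.46 log2 CPM, and the GSK-J4 libraries 7.14, 7.23 and 7.13. With GSK-J4 and cisplatin they read 7.19, 7.14 and 7.17, against 7.50, 7.47 and 7.48 with cisplatin alone. No library of a GSK-J4 group reached one without the drug. The change was -0.32 ± 0.03 log2 (SE, adjusted p = 5e-07), or -19.7%, and within cisplatin-treated cells -0.32 ± 0.03 (adjusted p = 5.7e-07). In 2102EP-C1 cells the libraries read 7.45, 7.46 and 7.47 in controls and 7.31, 7.27 and 7.39 with GSK-J4, again without overlap, for a change of -0.14 ± 0.03 (adjusted p = 0.0014). Within cisplatin-treated 2102EP-C1 cells the change was -0.09 ± 0.03 (adjusted p = 0.016), and this call rested on the cisplatin library of replicate 2, without which it was -0.09 at adjusted p = 0.051. With sh6A+6B the libraries read 7.39, 7.30 and 7.33 against 7.32, 7.33 and 7.31 in pLKO.1, an overlap, and the change of 0.02 had a 95% interval from -0.03 to 0.08 (adjusted p = 0.51). Cisplatin alone gave -0.00, -0.02 and 0.03 log2 in the 3 experiments, none of them called.

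EED, the reader of the finished mark, was lower with GSK-J4 and higher with sh6A+6B in 2102EP-C1 cells. It read 5.24, 5.29 and 5.20 log2 CPM in control 2102EP-C1 cells and 5.10, 5.03 and 5.11 with GSK-J4. The groups did not overlap, and the change was -0.16 ± 0.05 (adjusted p = 0.018). The call was lost without control replicate 2 (-0.14, adjusted p = 0.084) or without GSK-J4 replicate 2 (-0.14, adjusted p = 0.066). In the knockdown experiment EED moved the other way: sh6A+6B libraries read 5.37, 5.38 and 5.34, above the 5.27, 5.25 and 5.22 of pLKO.1, a change of 0.12 ± 0.03 (adjusted p = 0.00038), or 0.095 (adjusted p = 0.00083) once a trend with transcript length and GC content was removed from each library. Within cisplatin-treated cells the rise was 0.17 ± 0.03 (adjusted p = 2.4e-06), but it was 0.03 (adjusted p = 0.29) without that trend. NT2/D1-A4 cells gave -0.03 with GSK-J4 alone (95% interval -0.13 to 0.06).

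**Figure D3:**
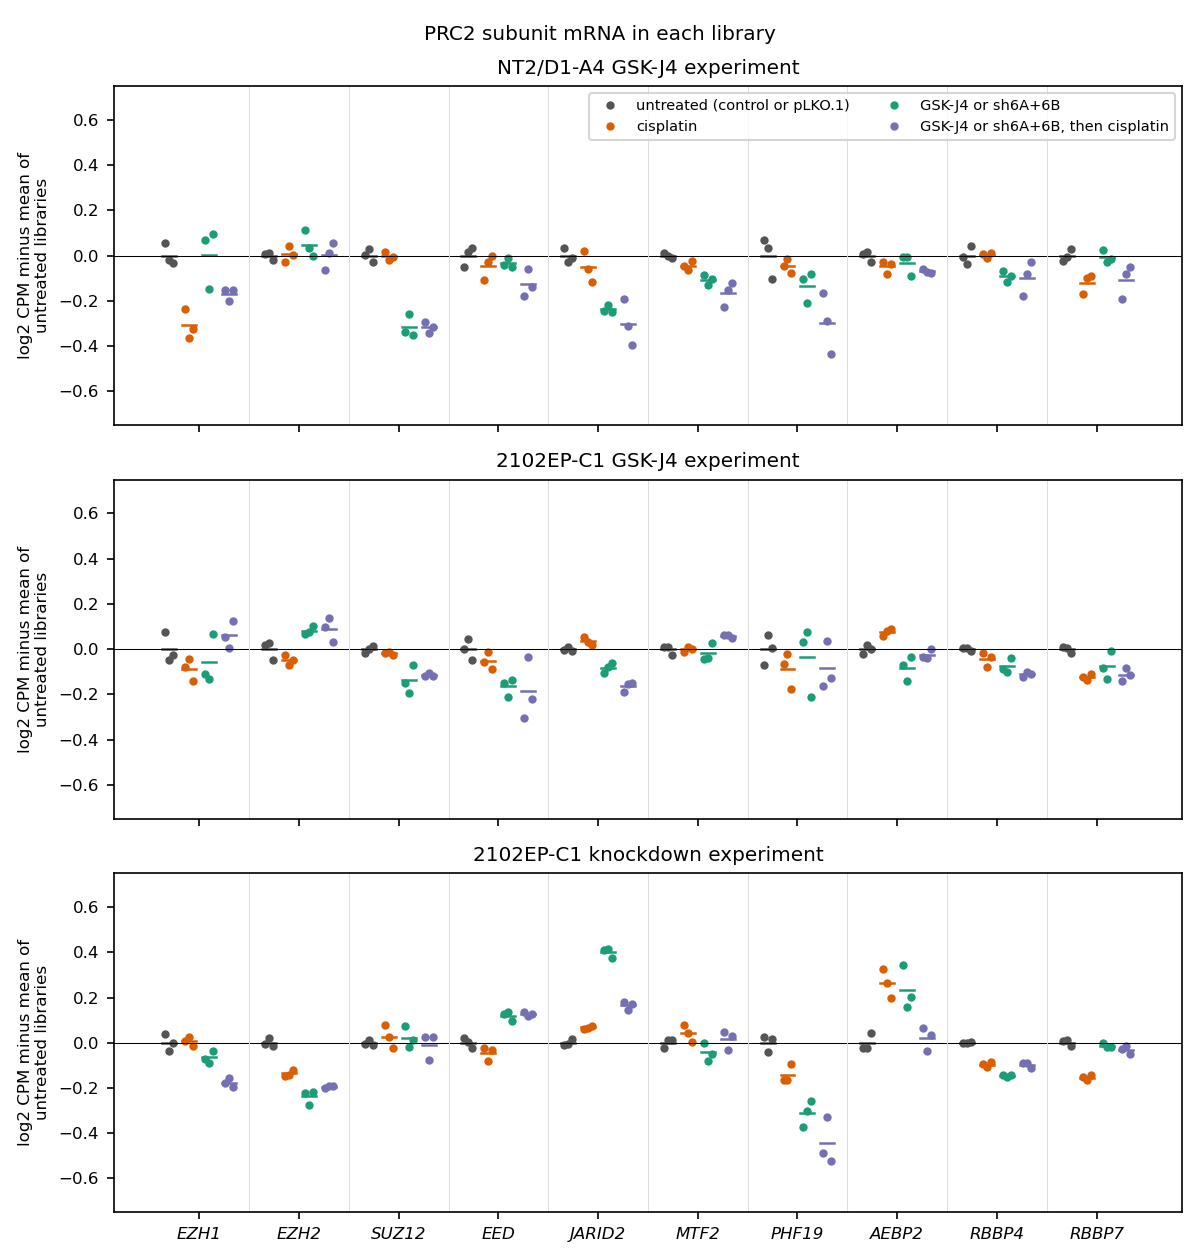
Log2 CPM of each PRC2 subunit minus its mean in the untreated or vector-only libraries of that experiment, in all 36 libraries by group. Each point is 1 library and each bar the mean of 3. The GSK-J4 groups of SUZ12 in the NT2/D1-A4 clone (7.13 to 7.23 log2 CPM before subtraction) lie below every library without GSK-J4. The sh6A+6B group of JARID2 (9.03 to 9.07 before subtraction) lies above pLKO.1 (8.64 to 8.67).

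EZH2, the main methyltransferase, was not called with GSK-J4 alone in either line and fell with the knockdown. Controls of the NT2/D1-A4 clone read 6.54, 6.55 and 6.51 log2 CPM and GSK-J4 libraries 6.65, 6.57 and 6.53, which overlap. The change was 0.05 (95% interval -0.04 to 0.13, adjusted p = 0.35). In 2102EP-C1 cells it was 0.08 (95% interval 0.01 to 0.16, adjusted p = 0.087) without cisplatin. Within cisplatin-treated 2102EP-C1 cells EZH2 read 6.32, 6.36 and 6.26 with GSK-J4 and 6.20, 6.16 and 6.18 without, and it rose by 0.14 ± 0.04 (adjusted p = 0.0028). In the knockdown experiment pLKO.1 libraries read 6.26, 6.28 and 6.24 and sh6A+6B libraries 6.04, 5.99 and 6.04. The groups stood apart, and EZH2 fell by 0.24 on the log2 scale (SE 0.02, adjusted p = 2.7e-09), a change of -15.1%. After cisplatin the knockdown difference was -0.06 ± 0.02 (adjusted p = 0.023). That call was lost without pLKO.1 cisplatin replicate 3 (-0.05, adjusted p = 0.088) or sh6A+6B cisplatin replicate 1 (-0.06, adjusted p = 0.055), and the difference was -0.16 with the length and GC trend removed.

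EZH1, the second catalytic subunit, has low counts (313 to 618 reads per library in the NT2/D1-A4 clone). In the NT2/D1-A4 clone it read 3.76, 3.69 and 3.68 log2 CPM in controls and 3.48, 3.35 and 3.39 after cisplatin. All 3 treated libraries lay lower, and EZH1 was the 1 member of 10 called for cisplatin alone there, where 9.43% of genes were called and 3.58% as lower. The fall was 0.31 on the log2 scale, written -0.31 ± 0.07 (SE, adjusted p = 0.0092). Without cisplatin replicate 2 it was -0.28 at adjusted p = 0.051. Cisplatin gave -0.09 in 2102EP-C1 cells (95% interval -0.23 to 0.05) and 0.01 in pLKO.1 cells (95% interval -0.07 to 0.08). In cisplatin-treated knockdown cells EZH1 read 3.83, 3.85 and 3.81 against 4.01, 4.03 and 3.99 in pLKO.1 cisplatin, lower by -0.18 ± 0.03 (adjusted p = 7.2e-05). This was -0.11 (adjusted p = 0.0061) with the length and GC trend removed.

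JARID2, which recruits PRC2.2 in pluripotent cells, had the largest knockdown effect among the 10 without cisplatin. The pLKO.1 libraries read 8.64, 8.65 and 8.67 log2 CPM and the sh6A+6B libraries 9.06, 9.07 and 9.03, with no overlap. The rise was 0.40 ± 0.02 (SE, adjusted p = 8.9e-16), or 31.9%. With GSK-J4 the direction was the reverse. NT2/D1-A4 controls read 9.35, 9.28 and 9.30 and GSK-J4 libraries 9.07, 9.09 and 9.06, a change of -0.24 ± 0.04 (adjusted p = 0.00023), and within cisplatin-treated cells -0.25 ± 0.04 (adjusted p = 0.00015). In 2102EP-C1 cells controls read 8.68, 8.69 and 8.68 and GSK-J4 libraries 8.58, 8.61 and 8.62, a smaller change of -0.08 ± 0.03 (adjusted p = 0.023). That call was lost in 4 of 12 fits that each left out 1 library (control replicates 1, 2 and 3 and GSK-J4 replicate 1, highest adjusted p = 0.098). Within cisplatin-treated 2102EP-C1 cells the change was -0.20 ± 0.03 (adjusted p = 1.3e-06) and was kept in every such fit. The same line thus gave -0.08 with the inhibitor and 0.40 with the knockdown, in tables that were scaled apart, and the difference between them was not tested.

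AEBP2, the partner of JARID2 in PRC2.2, read 7.70, 7.70 and 7.76 log2 CPM in pLKO.1 cells and 8.06, 7.88 and 7.92 with sh6A+6B. It rose by 0.23 ± 0.04 (adjusted p = 5e-06). After cisplatin the order was turned round: sh6A+6B cisplatin libraries read 7.79, 7.68 and 7.76 and pLKO.1 cisplatin libraries 8.04, 7.98 and 7.92, a difference of -0.24 ± 0.04 (adjusted p = 2.1e-06). In 2102EP-C1 cells GSK-J4 gave -0.08 ± 0.03 (adjusted p = 0.037), a call lost in 7 of 12 fits that left out 1 library (control replicates 1, 2 and 3, cisplatin replicates 2 and 3, GSK-J4 replicates 1 and 2, highest adjusted p = 0.20), and -0.10 ± 0.03 within cisplatin-treated cells (adjusted p = 0.0089). NT2/D1-A4 cells gave -0.03 with GSK-J4 alone (95% interval -0.11 to 0.04).

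Of the PRC2.1 subunits, PHF19 had few reads (282 to 620 per library in the NT2/D1-A4 clone) and the largest overall change of the 10, a root mean square of 0.22 log2 over the 9 differences from the untreated or vector group. In the knockdown experiment pLKO.1 libraries read 3.70, 3.63 and 3.69 log2 CPM, sh6A+6B libraries 3.30, 3.37 and 3.42, and sh6A+6B cisplatin libraries 3.19, 3.35 and 3.15. Both knockdown groups lay wholly below pLKO.1. The change was -0.31 ± 0.05 (adjusted p = 9.7e-06) without cisplatin and -0.45 ± 0.05 (adjusted p = 2.5e-08) for knockdown and cisplatin together, which also passed the fold of 1.3 where 16.0% of genes did. With the length and GC trend removed the latter was -0.30 (adjusted p = 4.1e-07). In the NT2/D1-A4 clone GSK-J4 gave -0.13 alone (95% interval -0.28 to 0.02, adjusted p = 0.14) and -0.25 ± 0.07 within cisplatin-treated cells (adjusted p = 0.0074), where the libraries read 3.68, 3.55 and 3.41 against 3.79, 3.83 and 3.76. PHF19 gave -0.03 in 2102EP-C1 cells with GSK-J4 (95% interval -0.19 to 0.12).

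MTF2, the abundant PRC2.1 subunit, had the smallest overall change, a root mean square of 0.07 log2. NT2/D1-A4 controls read 7.25, 7.24 and 7.23 log2 CPM and GSK-J4 libraries 7.15, 7.11 and 7.14. The groups did not overlap and the change was -0.11 ± 0.03 (adjusted p = 0.015), but the call was lost without control replicate 1 (adjusted p = 0.051), without GSK-J4 replicate 2 (adjusted p = 0.064) and with scaling to library size alone (-0.06, adjusted p = 0.14). GSK-J4 gave -0.02 in 2102EP-C1 cells (95% interval -0.08 to 0.04) and sh6A+6B -0.04 (95% interval -0.09 to 0.01, adjusted p = 0.13). With the length and GC trend removed the latter was -0.11 and passed (adjusted p = 1.3e-07), as did sh6A+6B within cisplatin-treated cells (-0.12, adjusted p = 6.3e-09, against -0.03).

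The histone-binding pair moved little with GSK-J4. RBBP4 gave -0.09 in the NT2/D1-A4 clone (adjusted p = 0.052) and -0.08 ± 0.03 in 2102EP-C1 cells (adjusted p = 0.042), the latter lost in 8 of 12 fits that left out 1 library (control replicates 1, 2 and 3, cisplatin replicates 1, 2 and 3, GSK-J4 replicates 1 and 2, highest adjusted p = 0.13). RBBP7 gave -0.01 (95% interval -0.09 to 0.07) and -0.07 (95% interval -0.14 to -0.01, adjusted p = 0.067). With the knockdown RBBP4 read 9.21 log2 CPM in all 3 libraries against 9.36, 9.35 and 9.36 in pLKO.1, and it fell by 0.14 on the log2 scale, -0.14 ± 0.01 (adjusted p = 6.5e-09). RBBP7 read 8.78, 8.76 and 8.77 against 8.79, 8.79 and 8.77, a change of -0.01 (95% interval -0.04 to 0.02). Reads of RBBP4 could be shared with its 7 annotated pseudogenes. RBBP4 also overlaps SYNC, RBBP7 overlaps TXLNG and JARID2 overlaps JARID2-AS1 on the opposite strand, and the strand setting of the counting is not given in the sources used here.

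Cisplatin without pretreatment gave 1 call in 10 in each untransduced line: EZH1 in the NT2/D1-A4 clone, as above, and RBBP7 in 2102EP-C1 cells, where 4.08% of genes were called and 1.02% as lower. RBBP7 read 8.74, 8.74 and 8.71 log2 CPM in controls and 8.61, 8.60 and 8.62 after cisplatin, without overlap (-0.12 ± 0.03, adjusted p = 0.020). The call was lost in 5 of 12 fits that left out 1 library (control replicates 1 and 2 and cisplatin replicates 1, 2 and 3, highest adjusted p = 0.11). RBBP7 in the NT2/D1-A4 clone read 8.20, 8.22 and 8.26 in controls and 8.06, 8.13 and 8.14 after cisplatin, also without overlap, at -0.12 ± 0.04 (adjusted p = 0.055). There it passed with the low-value filter (adjusted p = 0.047), with only the groups compared (0.0085), with the replicate number as a block (0.046), with the length and GC trend removed (-0.11, adjusted p = 0.0036) and without GSK-J4 and cisplatin replicate 1 or 3 (0.012 and 0.019). In pLKO.1 cells, with deeper libraries, 6 of 10 were called, 4 lower and 2 higher, where 36.1% of genes were called, 18.2% as lower and 17.9% as higher. RBBP7 fell there too, from 8.79, 8.79 and 8.77 to 8.63, 8.62 and 8.64 (-0.15 ± 0.02, adjusted p = 4.3e-08). EZH2 (-0.14 ± 0.02), PHF19 (-0.14 ± 0.05) and RBBP4 (-0.10 ± 0.01) also fell, and AEBP2 (0.26 ± 0.04) and JARID2 (0.07 ± 0.02) rose, with adjusted p from 2.8e-06 (AEBP2) to 0.025 (PHF19). The PHF19 call was lost in 4 of 12 fits that left out 1 library (pLKO.1 replicates 1 and 3, pLKO.1 cisplatin replicates 1 and 2, highest adjusted p = 0.09).

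The response to cisplatin differed between knockdown and vector cells for 5 of 10 members, where 35.1% of all genes had such an interaction, 18.0% with a negative and 17.2% with a positive sign. AEBP2 had the largest. Cisplatin raised it from 7.70, 7.70 and 7.76 to 8.04, 7.98 and 7.92 log2 CPM in pLKO.1 cells and lowered it from 8.06, 7.88 and 7.92 to 7.79, 7.68 and 7.76 in sh6A+6B cells (-0.21 ± 0.04, adjusted p = 2.3e-05). The interaction was -0.48 ± 0.05 log2 (adjusted p = 5.2e-08) and passed the fold of 1.3, where 3.77% of genes did. JARID2 went from 8.64, 8.65 and 8.67 to 8.72, 8.72 and 8.73 in pLKO.1 cells and from 9.06, 9.07 and 9.03 to 8.83, 8.80 and 8.82 in sh6A+6B cells, an interaction of -0.30 ± 0.02 (adjusted p = 2.3e-10), or -0.20 (adjusted p = 5.7e-10) with the length and GC trend removed. Both PRC2.2 subunits therefore rose with cisplatin in vector cells and fell in knockdown cells, with no overlap of libraries in any of these 4 steps.

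**Figure D4:**
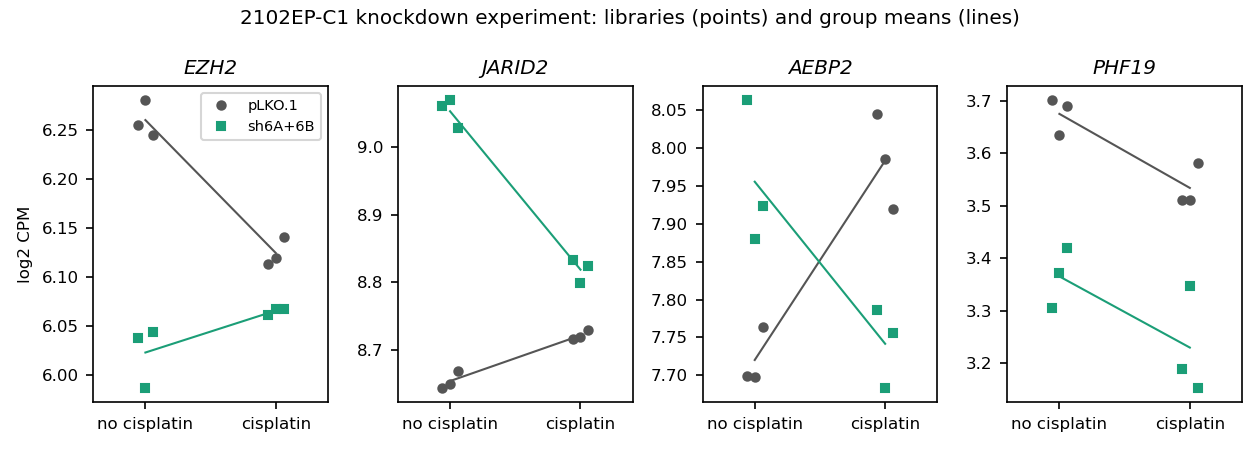
Log2 CPM of EZH2, JARID2, AEBP2 and PHF19 across the 4 groups of the knockdown experiment. Each point is 1 library, and lines join group means of 3 libraries without and with cisplatin. The lines of AEBP2 and JARID2 rise in pLKO.1 cells and fall in sh6A+6B cells, with interactions of -0.48 and -0.30 log2.

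The other 3 interactions had the opposite sign. EZH2 fell with cisplatin in pLKO.1 cells, from 6.26, 6.28 and 6.24 to 6.11, 6.12 and 6.14, and changed by 0.04 in sh6A+6B cells, from 6.04, 5.99 and 6.04 to 6.06, 6.07 and 6.07. Its interaction was 0.18 ± 0.03 (adjusted p = 5.6e-05), or 0.10 (adjusted p = 0.0048) with the length and GC trend removed. RBBP4 fell in pLKO.1 cells and rose by 0.05 ± 0.01 in sh6A+6B cells (adjusted p = 0.0084), an interaction of 0.14 ± 0.02 (adjusted p = 3.2e-06), or 0.24 with that trend removed. For RBBP7 the interaction was 0.14 ± 0.02 (adjusted p = 2.2e-05), but 0.03 (adjusted p = 0.28) with the trend removed. In sh6A+6B cells 6 of 10 members were called for cisplatin, where 44.8% of genes were (22.7% as lower and 22.1% as higher): EZH1 (-0.11), JARID2 (-0.23), PHF19 (-0.14) and AEBP2 (-0.21) fell and MTF2 (0.06) and RBBP4 (0.05) rose. With the trend removed the EZH1 and PHF19 calls were lost (-0.06, adjusted p = 0.16, and -0.06, adjusted p = 0.31), as was that of MTF2 (-0.01, adjusted p = 0.72), and RBBP4 was at 0.08. SUZ12 (-0.08, adjusted p = 0.00028), EED (-0.07, adjusted p = 0.01) and RBBP7 (-0.09, adjusted p = 3.3e-07) then passed as lower. The MTF2 and PHF19 libraries of the 2 groups overlapped, and their calls were lost in 8 and 4 of 12 fits that left out 1 library. For MTF2 these were pLKO.1 replicates 1, 2 and 3, pLKO.1 cisplatin replicate 2, sh6A+6B replicates 2 and 3 and sh6A+6B cisplatin replicates 1 and 3 (highest adjusted p = 0.21), and for PHF19 the last 4 of these (highest adjusted p = 0.15).

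With GSK-J4 no member had an interaction with cisplatin that passed. The test called 0 of 10 in the NT2/D1-A4 clone, where 0.0426% of genes were called, and 0 of 10 in 2102EP-C1 cells, where 2.38% were. At unadjusted p under 0.05 the counts were 0 and 2 (EZH1 and JARID2), and with voom weights on recovered reads they were 0 and 0 after adjustment. JARID2 in 2102EP-C1 cells was at -0.12 (95% interval -0.20 to -0.04, adjusted p = 0.10) and AEBP2 at -0.02 (95% interval -0.11 to 0.07). Their values in the NT2/D1-A4 clone were -0.01 (95% interval -0.14 to 0.12) and 0.01 (95% interval -0.09 to 0.11). Without 2102EP-C1 GSK-J4 replicate 3, 3 interactions passed in that line: EZH1 (0.27, adjusted p = 0.04), JARID2 (-0.11, adjusted p = 0.031) and RBBP7 (0.12, adjusted p = 0.024). Shares of all genes were not counted for that fit, for unadjusted p or for voom weights. The counts at those settings in this paragraph therefore do not single out the members. Within GSK-J4-treated cells limma called 0 of 10 for cisplatin in the NT2/D1-A4 clone (1.26% of genes), with 3 at unadjusted p under 0.05 and 0 with voom weights, and it called 1 of 10 in 2102EP-C1 cells (15.7% of genes, 8.10% as lower), JARID2 at -0.08 ± 0.03 (adjusted p = 0.042), a call lost in 11 of 12 fits that left out 1 library, all but that without GSK-J4 replicate 3 (highest adjusted p = 0.14).

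Within cisplatin-treated cells GSK-J4 changed 5 of 10 members in the NT2/D1-A4 clone, all lower, where 48.4% of genes were called and 24.2% as lower. In 2102EP-C1 cells it changed 6 of 10, SUZ12, EED, JARID2, AEBP2 and RBBP4 lower and EZH2 higher, where 49.4% of genes were called, 23.9% as lower and 25.5% as higher. The knockdown changed 7 of 10 there, where 61.6% were (30.7% as lower and 30.9% as higher): EZH1, EZH2, PHF19 and AEBP2 were lower and EED, JARID2 and RBBP7 higher. With the length and GC trend removed the calls of EED (0.03, adjusted p = 0.29) and RBBP7 (-0.01, adjusted p = 0.51) were lost, JARID2 was at 0.21 against 0.10, PHF19 at -0.17 against -0.30, and SUZ12 passed as lower (-0.11, adjusted p = 1.6e-06, against -0.04). MTF2 then also passed as lower (-0.12, adjusted p = 6.3e-09) and RBBP4 as higher (0.05, adjusted p = 0.0027). GSK-J4 and cisplatin together, against untreated cells, lowered 8 of 10 in the NT2/D1-A4 clone, all but EZH2 and AEBP2, where 54.0% of genes were called and 26.5% as lower. That count was 4 with scaling to library size alone, 5 without control replicate 2, and 4 without control replicate 3 or without GSK-J4 and cisplatin replicate 1. In 2102EP-C1 cells 6 of 10 were called against controls, where 53.0% of genes were (25.6% as lower and 27.4% as higher), with EZH2 higher (0.09 ± 0.04, adjusted p = 0.044). Knockdown and cisplatin together changed 6 of 10, where 62.6% of genes were called: EZH1, EZH2, PHF19 and RBBP4 were lower (31.7% of genes) and EED and JARID2 higher (30.9%). With the length and GC trend removed the EED call was lost (0.02, adjusted p = 0.46), EZH1 was at -0.11 and SUZ12 passed as lower (-0.12, adjusted p = 4.9e-07, against -0.01). MTF2 (-0.11, adjusted p = 2.7e-08), AEBP2 (-0.06, adjusted p = 0.019) and RBBP7 (-0.13, adjusted p = 7.6e-11) then passed as lower too. Comparisons against the same untreated group share its libraries, so these counts are not separate evidence.

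Several of these calls rested on single libraries. Within cisplatin-treated cells, the RBBP4 call in the NT2/D1-A4 clone (-0.10) was lost in 5 of 12 fits that left out 1 library (cisplatin replicates 1, 2 and 3, GSK-J4 and cisplatin replicates 1 and 2, highest adjusted p = 0.15). In 2102EP-C1 cells the RBBP4 call (-0.07) was lost in 9 of 12, all but those without cisplatin replicate 2 and GSK-J4 replicates 2 and 3 (highest adjusted p = 0.18), and the EED call (-0.13), whose libraries overlapped, in 4 of 12 (cisplatin replicates 1 and 2, GSK-J4 and cisplatin replicates 1 and 3, highest adjusted p = 0.27). For both agents together in the NT2/D1-A4 clone, EZH1 (-0.17) was lost in 8 of 12, namely without any control or any GSK-J4 and cisplatin library and without cisplatin replicates 2 and 3 (highest adjusted p = 0.15). RBBP4 (-0.10), whose libraries overlapped, was lost without control replicates 1 and 3 and GSK-J4 and cisplatin replicates 1 and 2 (highest adjusted p = 0.15). EED (-0.13) and RBBP7 (-0.11) were lost without control replicates 2 and 3 and GSK-J4 and cisplatin replicate 1 (highest adjusted p = 0.084 and 0.11). In 2102EP-C1 cells EZH2 was lost in 7 of 12 (control replicates 1 and 3, cisplatin replicates 1, 2 and 3, GSK-J4 and cisplatin replicates 1 and 2, highest adjusted p = 0.21), and EED (-0.19), whose libraries overlapped, without GSK-J4 and cisplatin replicate 1 (-0.13, adjusted p = 0.051). With the replicate number as a block, 4 calls in 2102EP-C1 cells were lost: RBBP4 with GSK-J4 alone (adjusted p = 0.054) and within cisplatin-treated cells (0.062), JARID2 for cisplatin with GSK-J4 (0.058) and EZH2 for both agents (0.051). With the length and GC trend removed, in the same line, JARID2 for cisplatin with GSK-J4 (-0.06, adjusted p = 0.068) and EZH2 for both agents (0.05, adjusted p = 0.17) were lost. Within cisplatin-treated cells GSK-J4 then gave SUZ12 -0.18, AEBP2 -0.18 and RBBP4 -0.12, and RBBP4 was at -0.13 with GSK-J4 alone.

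Proliferation genes also moved with pretreatment alone and in the knockdown experiment with cisplatin. The list counts here and below stand beside these shares of all genes called: with GSK-J4 alone 24.5% higher and 23.8% lower in the NT2/D1-A4 clone and 19.2% higher and 16.0% lower in 2102EP-C1 cells, and with sh6A+6B 25.6% higher and 27.2% lower. Of a list of 28, GSK-J4 lowered 19 and raised 2 in the NT2/D1-A4 clone and lowered 26 in 2102EP-C1 cells, and sh6A+6B lowered 24 and raised 1. Cisplatin raised 4 and lowered 13 of the list in pLKO.1 cells, where 17.9% of all genes were higher and 18.2% lower. In sh6A+6B cells it raised 15 and lowered 11 (22.1% and 22.7% of all genes). The interaction was positive for 16 and negative for 3 (17.2% and 18.0% of all genes). The list's mean was 7.302 to 7.341 log2 CPM in the libraries of control NT2/D1-A4 cells and 7.057 to 7.099 with GSK-J4, 7.028 to 7.069 and 6.803 to 6.842 in 2102EP-C1 cells, and 7.037 to 7.062 in pLKO.1 and 6.875 to 6.891 in sh6A+6B cells. MKI67, a marker of cycling cells, fell in the NT2/D1-A4 clone (-0.89 ± 0.07), and UHRF1, which maintains DNA methylation, fell in all 3 experiments (-0.86 ± 0.07, -0.48 ± 0.05 and -0.43 ± 0.03). The summed embryonal carcinoma markers were 6090 to 6220 CPM in control NT2/D1-A4 cells and 5270 to 5440 with GSK-J4, 7800 to 7920 and 7270 to 7410 in 2102EP-C1 cells, and at least 7510 in pLKO.1 and at least 7540 in sh6A+6B cells. After cisplatin alone these sums were 5680 to 5870 CPM in the NT2/D1-A4 clone, at most 7180 in pLKO.1 cells and at most 7160 in sh6A+6B cells. The summed fibroblast markers, COL1A2 and PDGFRB with no values for COL3A1, DCN and LUM, were 26.3 to 28.8 CPM in controls of the NT2/D1-A4 clone and 34.8 to 37.2 after cisplatin, and 69.6 to 71.7 and 87.7 to 89.4 in 2102EP-C1. They were 70.8 to 71.8 in pLKO.1 cells and 86.1 to 88.0 after cisplatin, against 79.4 to 82.5 in sh6A+6B cells and 76.8 to 82.7 after cisplatin. The part of these lists in the subunit changes was not tested.

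Other polycomb genes gave mixed counts. Of 4 further PRC2-associated genes with values (PHF1, EPOP, LCOR and LCORL), GSK-J4 lowered EPOP and LCOR in the NT2/D1-A4 clone and none in 2102EP-C1 cells, and sh6A+6B raised EPOP and LCORL. These 4 are named after their values were seen. LCOR, a PRC2.1 cofactor, had a knockdown interaction with cisplatin of -0.43 ± 0.03 (adjusted p = 9.2e-10) and LCORL one of -0.18 ± 0.06 (adjusted p = 0.021). For canonical PRC1, which binds the mark PRC2 makes, GSK-J4 raised 1 and lowered 5 of 14 in the NT2/D1-A4 clone and raised 3 and lowered 2 of 13 in 2102EP-C1 cells, and sh6A+6B raised 2 and lowered 3 of 13. The chromodomain gene CBX2 (-0.50 ± 0.06) and the E3 ligase gene RING1 (-0.54 ± 0.10) fell in the NT2/D1-A4 clone, and CBX7 (-0.51 ± 0.08) fell with knockdown. Variant PRC1, which ubiquitylates histone H2A without reading the mark, had 2 of 13 higher and 7 lower, 1 higher and 6 lower, and 4 higher and 4 lower. Its ring finger gene PCGF5 rose with GSK-J4 in both lines (0.72 ± 0.06 and 0.57 ± 0.09), FBRSL1 fell in the NT2/D1-A4 clone (-0.49 ± 0.07), and with knockdown YAF2 rose (0.67 ± 0.11) and PCGF3 fell (-0.46 ± 0.03).

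The H2A deubiquitinase PR-DUB, which removes that ubiquitin, had 2 of 9 higher and 4 lower with GSK-J4 in the NT2/D1-A4 clone, 0 of 10 higher and 3 lower in 2102EP-C1 cells, and 3 higher and 2 lower with knockdown. ASXL1 fell in the NT2/D1-A4 clone (-0.39 ± 0.05) and ASXL3 rose with knockdown (0.97 ± 0.20). For the other complexes that use RBBP4 or RBBP7 (NuRD, SIN3 and CAF-1), 10 of 17 were lower and 0 higher, 7 lower and 1 higher, and 14 lower and 0 higher. The list of polycomb-repressed developmental regulators, typical PRC2 targets, held 30 genes. Of these, 9 of 15 measured rose and 0 fell in the NT2/D1-A4 clone, 6 of 12 rose and 0 fell in 2102EP-C1 cells, and 4 of 12 rose and 2 fell with knockdown. Medians of the measured genes were 0.57, 0.27 and 0.095 log2. A gene had values only if it passed 0.5 CPM in 2 or more samples. A gene silent in controls could thus enter only through groups where it was higher, so these counts cannot show that the list rose. PAX6 in the NT2/D1-A4 clone, for example, was at 0.143 to 0.224 CPM in controls, at most 0.406 after cisplatin and 0.509 to 0.604 with GSK-J4. Among the largest changes reported here were MSX1 (1.84 ± 0.29), PAX6 (1.65 ± 0.34, at no more than 0.709 CPM in any library) and MSX2 (1.01 ± 0.04) in the NT2/D1-A4 clone, GATA2 (1.08 ± 0.11), HAND1 (0.89 ± 0.14) and GATA4 (0.79 ± 0.20) in 2102EP-C1 cells, and HOXB1 (-0.94 ± 0.05) and TBX3 (0.92 ± 0.05) with knockdown. The genes named by size from the PRC1, PR-DUB, proliferation and developmental lists had limma adjusted p of at most 0.0025.

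Over the 9 log2 differences from the untreated or vector group, the genes most like EZH2 among 8730 measured in all tables were CCT7, NRBP1 and RHOA, with root mean square differences of 0.04 log2 each. Those most like PHF19 were WDR5, SHISA5 and ZNF74, at 0.06 each. These are descriptions of pattern over differences that share control libraries.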

How the data were processed

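RNA-seq of 36 libraries was analysed. Per the labels and the study's methods, Trimmomatic, STAR (on GRCh38.p14) and featureCounts were used for trimming, alignment and gene counting. Genes needed over 0.5 CPM in 2 or more samples, and the authors deposited log2 CPM scaled by TMM (trimmed mean of M values) for each experiment. Tool versions and the strand setting of the counting are not given in the sources used here. The deposited values fitted a prior count of 3, and the low values gave whole reads in 100% of cases within 0.05, so depth and read counts were recovered from them.

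Each table was fitted on its own with limma 3.58.1 in R 4.3.3 (moderated statistics with an intensity trend, 12 libraries, 4 groups, no block), two-sided, with BH adjustment over all genes. A gene was called at adjusted p under 0.05, and a second rule also asked for a fold over 1.3. Levels per length divide CPM by the length of the MANE transcript. Gene symbols matched for 16414, 17020 and 16443 genes. Fits were tested on simulated data. Alternatives were a low-value filter, a fit of the groups compared only, the replicate number as a block, each library left out, library-size scaling, a prior count of 0.5, voom weights, no intensity trend and, added after seeing the data, removal of a trend with transcript length and GC content.

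The text names all 10 members, the demethylases, at most 3 genes per list with the largest change past both thresholds with pretreatment alone (some of these are not reported here), and the 3 genes most like EZH2 and like the member with the largest overall change. The members and lists were chosen with earlier results of these data known. Within an experiment the comparisons share control libraries. A p-value here covers the spread between these libraries. Protein sequences were not used here.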

Additional observations from a re-analysis of the deposited data

Results flagged for a closer look

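In the knockdown experiment the response to cisplatin differed between sh6A+6B and pLKO.1 cells for 5 of 10 subunits by limma's interaction term: AEBP2 (-0.4761 log2), JARID2 (-0.3024), EZH2 (0.1782), RBBP4 (0.1435) and RBBP7 (0.1364). All 5 passed with every single library left out, and RBBP7 did not pass with the length and GC trend removed (0.0286, adjusted p = 0.28).

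AEBP2 and MTF2 had libraries that all moved one way in one experiment and all the opposite way in another, and the difference was not tested. Cisplatin alone gave AEBP2 -0.0471 in the NT2/D1-A4 clone, 0.0753 in 2102EP-C1 cells and 0.2627 in pLKO.1 cells, of which only the last was called (adjusted p = 0.42, 0.2 and 2.8e-06), where 9.43%, 4.08% and 36.1% of genes were. GSK-J4 within cisplatin-treated cells gave MTF2 -0.1232 in the NT2/D1-A4 clone and 0.0586 in 2102EP-C1 cells, and both agents together gave it -0.1671 and 0.058. Both values of 2102EP-C1 cells were not called (adjusted p = 0.11 each, where 49.4% and 53.0% of genes were), and with the length and GC trend removed they were -0.0252 and -0.0113, the sign seen in the NT2/D1-A4 clone. With that trend removed the JARID2 interaction was -0.1993, that of EZH2 0.101 and that of RBBP4 0.2422.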

How the results depend on the processing

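Across all alternatives, 45 of the 72 calls on subunits were kept in every one (10 of 17 in the NT2/D1-A4 clone, 8 of 19 with GSK-J4 in 2102EP-C1 and 27 of 36 in the knockdown experiment), and 50 were kept whichever library was left out. In the NT2/D1-A4 clone the number of subunits called for cisplatin alone was 1, but 2 with the low-value filter, with only the groups compared, with the replicate block and with the length and GC trend removed, and 0 to 2 with a library left out. For cisplatin with GSK-J4 it was 0, but 1 with that trend removed. For both agents it was 8, but 4 with library-size scaling, 5 without the intensity trend and 4 to 8 with a library left out. In 2102EP-C1 cells the count for cisplatin alone was 1, but 2 with only the groups compared, 0 without the intensity trend and 0 to 1 with a library left out. For GSK-J4 alone it was 5, but 2 with only the groups compared, 1 without the intensity trend and 1 to 6 with a library left out. For cisplatin with GSK-J4 it was 1, but 0 with only the groups compared, with the replicate block and without the intensity trend, 2 with the length and GC trend removed and 0 to 4 with a library left out, 4 being without GSK-J4 replicate 3. The GSK-J4 interaction was 0 to 3, 3 being without that same library. Shares of all genes called were not counted for these alternative fits, so changes in these counts do not single out the subunits. Removing the length and GC trend, which was added after seeing the data, turned the sign of 6 knockdown results with a call on either side: EED (-0.0741) and MTF2 (-0.0074) for cisplatin with sh6A+6B, RBBP4 (0.0477) and RBBP7 (-0.0104) within cisplatin-treated cells, and MTF2 (-0.1137) and AEBP2 (-0.0595) for both agents. It also brought 17 other results past the threshold, 9 of them in the knockdown experiment (on SUZ12, MTF2 and RBBP7), and ended 7 calls beside those with a turned sign. The causes were not tested.

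The replicate numbers in the labels were not taken as pairs: same-numbered libraries had correlated deviations over 0.1 in 3, 1 and 5 of 18 pairs per experiment, and 5, 2 and 8 of 12 libraries correlated best with their own number. With the replicate block 68 of the 72 calls passed and 2 others were gained, RBBP7 for cisplatin and RBBP4 for GSK-J4 in the NT2/D1-A4 clone (adjusted p = 0.046 and 0.045). The 4 lost were in 2102EP-C1 cells with GSK-J4: RBBP4 for GSK-J4 with and without cisplatin, JARID2 for cisplatin with GSK-J4 and EZH2 for both agents. The counts with the block, for cisplatin, pretreatment, cisplatin with pretreatment, pretreatment within cisplatin, both and interaction, were 2, 4, 0, 5, 8 and 0 in the NT2/D1-A4 clone, 1, 4, 0, 5, 5 and 0 in 2102EP-C1 cells, and 6, 6, 6, 7, 6 and 5 in the knockdown experiment. Depth limits EZH1 and PHF19 most, with 313 and 282 reads in their lowest libraries.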

Other observations

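RBBP4 stood at 8.65, 8.65 and 8.64 log2 CPM in control 2102EP-C1 cells and at 9.36, 9.35 and 9.36 in the pLKO.1 cells of the same line. These are values from tables scaled apart, and the difference was not tested. EPOP, a PRC2.1 cofactor chosen after its values were seen, was lower with GSK-J4 within cisplatin-treated cells in both lines (-0.41, adjusted p = 3e-05, and -0.37, adjusted p = 0.00046, by limma).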
